A study of Mus musculus with 6 samples.

Results

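Macrophage identity rests on a small set of transcription factors, and 8 of them are described here: Spi1, Cebpa, Cebpb, Cebpd, Maf, Runx1, Bhlhe40 and Bhlhe41. The members were taken by gene symbol from a table of 46095 genes. All 8 were found and all 8 were among the 13215 genes with enough counts to be tested. The libraries are RNA sequencing of bone marrow-derived macrophages of C57BL/6 mice aged 56 days. The 3 Cd226-/- libraries come from mice that lack Cd226, the gene of the activating adhesion receptor CD226, and the 3 WT libraries from wild-type mice. Every culture, of either genotype, was grown with M-CSF at 20 ng/ml for 7 days and then received IFN-γ at 20 ng/ml with LPS at 100 ng/ml for 24 h, so the comparison is between stimulated cells. The labels name neither the allele nor the number of mice behind a culture, and they do not say whether replicates are separate animals. The spread that the p-values measure is thus the spread between these libraries, and it may be only technical.

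Spi1 encodes PU.1, the ETS-family pioneer factor that opens myeloid enhancers and drives the M-CSF receptor gene. The C/EBP proteins are basic leucine zipper factors that bind beside PU.1: C/EBPα governs the commitment of progenitors to the myeloid lineage, while C/EBPβ and C/EBPδ are induced by inflammatory stimuli and drive cytokine and acute-phase genes. RUNX1 acts with its partner CBFβ early in haematopoiesis. The MAF protein c-MAF restrains macrophage self-renewal and activates Il10. BHLHE40 (DEC1) and BHLHE41 (DEC2) are repressors that bind E-boxes, take part in the circadian clock and, in alveolar macrophages of mice, hold down Maf.

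The libraries were of like depth, with 16925955 to 18867799 counts in Cd226-/- and 16838527 to 21658061 counts in WT. Cd226-/- replicate 1 stood apart from the other Cd226-/- libraries on the second principal component (15.5% of variance), so the factors are also given without it and with it as the only Cd226-/- library. Cd226-/- replicates 2 and 3 held transcripts of hepatocytes such as Alb, with 0, 266 and 279 counts in Cd226-/- replicates 1 to 3 and 0 in each WT library. The counts of Cd226 itself do not check the genotype labels: it had 11, 10 and 8 counts in Cd226-/- and 5, 17 and 23 counts in WT, near the detection limit in both, and a deletion of part of a gene can leave reads from the rest.

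Of the 8 factors, 2 rose and 1 fell in Cd226-/- macrophages, and 5 did not pass the test. Bhlhe40 rose 1.64-fold and Maf rose 1.38-fold, while Cebpa fell by 0.66 on the log2 scale to 0.633 of its WT level. Spi1, Cebpb, Cebpd, Runx1 and Bhlhe41 had log2 fold changes between -0.24 and 0.077 and did not pass. The test was edgeR's quasi-likelihood F-test with p-values adjusted over all 13215 genes, and 0.05 was the threshold. Across all tested genes 30.9% were called, 16.1% higher and 14.8% lower in Cd226-/-, so that the 37.5% of the factors that were called is near the share of genes in general. Judged by overlap, 4 of the 8 had no library of one genotype within the range of the other (2 higher and 2 lower in Cd226-/-), against 44.3% of all tested genes. Scaled by library size alone, 1773 genes were higher and 2764 lower, against 2130 higher and 1956 lower with TMM. The 3 factors that passed were called under each of 16 other fits, including every fit with 1 library left out.

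Promoter sequences show where these genes differ in the DNA before their start. RefSeq promoter windows of GRCm38.p6 were at hand for 4 of the 8 genes, Cebpa, Cebpb, Bhlhe41 and Runx1. The windows of Cebpa and Cebpb are printed because one of the paired relatives fell and the other did not pass, and that of Bhlhe41 because it holds the E-box letters that BHLHE40 and BHLHE41 recognise. Each sequence is the 250 bases before the RefSeq start, 5′ to 3′ on the gene's own strand. They lie at chr7:35119043-35119292 (plus strand) for Cebpa, chr2:167688665-167688914 (plus strand) for Cebpb and chr6:145865421-145865670 (minus strand) for Bhlhe41. In another annotation, GENCODE M21, Bhlhe41 starts at base 145865558. Part of its window thus lies inside the gene as placed there. In Cebpa the capitals mark the letters of the TATA box. In Bhlhe41 they mark those of the E-box.
Cebpa: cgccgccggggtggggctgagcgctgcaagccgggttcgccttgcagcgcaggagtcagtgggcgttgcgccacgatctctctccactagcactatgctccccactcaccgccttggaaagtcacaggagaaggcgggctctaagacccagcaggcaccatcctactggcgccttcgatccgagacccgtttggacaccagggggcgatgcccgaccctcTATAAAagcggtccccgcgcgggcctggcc
Cebpb: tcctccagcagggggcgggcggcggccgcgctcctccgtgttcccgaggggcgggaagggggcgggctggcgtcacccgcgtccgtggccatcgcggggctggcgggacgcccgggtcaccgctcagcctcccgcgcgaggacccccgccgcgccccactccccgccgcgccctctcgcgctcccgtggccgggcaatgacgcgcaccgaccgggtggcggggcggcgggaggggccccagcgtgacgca
Bhlhe41: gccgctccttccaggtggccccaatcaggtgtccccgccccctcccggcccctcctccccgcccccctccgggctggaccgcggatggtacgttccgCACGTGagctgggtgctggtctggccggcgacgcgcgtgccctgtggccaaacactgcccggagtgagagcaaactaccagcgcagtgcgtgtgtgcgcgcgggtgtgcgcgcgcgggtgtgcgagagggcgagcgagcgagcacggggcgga

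These printed promoters are rich in G and C: 66.4% of bases in Cebpa, 81.6% in Cebpb and 73.6% in Bhlhe41. The median was 52.4% over 32851 RefSeq promoters. The 2 Runx1 windows, which are not printed, had 45.6% and 67.6%. Motifs were searched on both strands over windows that also hold the first 50 bases after the start. TATAAA began at base -30 in Cebpa and at base 22 after that start in Cebpb, and 13.6% of all promoters hold it. CACGTG began at base -153 in Bhlhe41 and at base -71 in 1 of the 2 Runx1 windows; 7.15% of all promoters hold it. Further matches among the 4 genes were in Runx1: GAGGAA, the core bound by PU.1, in 1 window (28.3% of all promoters) and TGTGGT, a RUNX site, in the other (16.8%). TTGCNNCAA, a C/EBP palindrome, and TGCTGA, part of the MAF site, had no match in these windows, and 2.08% and 19.5% of all promoters hold them. A match describes the letters and not a bound site.

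Bhlhe40 (chromosome 6, 108660629 to 108666925, plus strand, 5 exon blocks in GENCODE M21 on GRCm38) and Cebpa had the largest log2 fold changes of the 8. That of Bhlhe40 was larger in size with all libraries and TMM scaling, and that of Cebpa was larger without Cd226-/- replicate 1 (-0.77 against 0.65), without WT replicate 3 (-0.67 against 0.66) and scaled by library size alone (-0.71 against 0.66). The level of Bhlhe40 was 137, 120 and 120 CPM in Cd226-/- replicates 1 to 3, against 80.9, 78.2 and 71.2 CPM in WT replicates 1 to 3, where CPM is the usual depth-scaled count (edgeR, TMM-scaled library sizes). Every Cd226-/- library lay above every WT library, and the highest was Cd226-/- replicate 1. Among all tested genes 22.1% were higher in Cd226-/- with no overlap between the genotypes. The mean was 126 ± 9.67 CPM in Cd226-/- and 76.8 ± 5.03 CPM in WT (SD, n = 3 each), with a log2 fold change of 0.72 ± 0.063 (SE) and adjusted p = 1.90e-08 in edgeR's test. A change of at least this size in either direction was seen for 10.6% of tested genes.

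Bhlhe41 (chromosome 6, 145858243 to 145865558, minus strand), the paralogue, lies on the same chromosome and did not pass. It had 44.2, 33.6 and 38.2 CPM in Cd226-/- libraries and 34.6, 45.5 and 30.4 CPM in WT libraries. The groups overlapped, with the highest value in WT replicate 2. The log2 fold change was 0.077 with a 95% interval of -0.35 to 0.50 (edgeR, adjusted p = 0.779), an interval that still holds changes as large as those of Maf. Without Cd226-/- replicate 1 the value was -0.029 and without WT replicate 3 it was -0.051. The exons of Bhlhe41 share 1280 bases, 19.0% of their length, with an annotated gene on the opposite strand. Without a stated strand setting, reads of that stretch cannot be told apart.

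Maf (chromosome 8, 115682942 to 115707794, minus strand, 3 exon blocks) was higher in each Cd226-/- library. It had 138, 141 and 153 CPM in Cd226-/- replicates 1 to 3 and 103, 108 and 103 CPM in WT replicates 1 to 3. The genotypes did not overlap, and the libraries within a genotype lay close together. The means were 144 ± 7.92 CPM in Cd226-/- and 105 ± 3.09 CPM in WT (SD, n = 3 each). The log2 fold change was 0.46 ± 0.054 (SE, edgeR adjusted p = 8.67e-07). The exons of Maf share 440 bases, 5.34% of their length, with an annotated gene on the opposite strand.

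Cebpa (chromosome 7, 35119293 to 35121928, plus strand) is a gene of 1 exon. It had 94.1, 75.5 and 75.8 CPM in Cd226-/- replicates 1 to 3, against 130, 130 and 128 CPM in WT replicates 1 to 3. The WT libraries lay close together, and Cd226-/- replicate 1 stood between them and the other Cd226-/- libraries. Of all tested genes 22.3% were lower in Cd226-/- without overlap. The means were 81.8 ± 10.6 CPM in Cd226-/- and 129 ± 1.49 CPM in WT (SD, n = 3 each), and the log2 fold change was -0.66 ± 0.071 (SE, edgeR adjusted p = 1.69e-06). Leaving replicate 1 of the Cd226-/- libraries out gave -0.77, and keeping it alone against WT gave -0.45 (edgeR adjusted p = 3.14e-06).

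Cebpb (chromosome 2, 167688915 to 167690418, plus strand), also of 1 exon, was the most abundant of the 8. It had 575, 507 and 496 CPM in Cd226-/- and 552, 526 and 555 CPM in WT, so the groups overlapped and Cd226-/- replicate 1 was the highest of the 6. The log2 fold change was -0.049 with a 95% interval of -0.16 to 0.07 (edgeR adjusted p = 0.545). Without Cd226-/- replicate 1 Cebpb passed the test at -0.12 (adjusted p = 0.0329), and with that replicate alone against WT the sign turned to 0.087 (adjusted p = 0.352). It also passed at -0.15 with a correction for GC content and transcript length (adjusted p = 0.0161). Its exons share 312 bases, 20.7% of their length, with Tmem189 on the opposite strand, and without a stated strand setting reads of that stretch cannot be told apart. Tmem189 had 5371, 3954 and 4320 counts in Cd226-/- and 4113, 3926 and 4837 counts in WT.

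Cebpd (chromosome 16, 15887286 to 15891031, plus strand) was the least abundant, with 101, 130 and 133 counts in Cd226-/- libraries and 128, 138 and 201 counts in WT libraries. These are 5.57, 7.79 and 7.24 CPM in Cd226-/- and 7.01, 8.06 and 9.09 CPM in WT, which overlap. The log2 fold change of -0.24 had a 95% interval of -0.56 to 0.09 (edgeR adjusted p = 0.277). Its exons share 562 bases, 15.0% of their length, with Spidr on the opposite strand. For Bhlhe40, Cebpa and Runx1 the share with opposite-strand genes was 2.51%, 1.93% and 0.881%.

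Spi1 (chromosome 2, 91082390 to 91115756, plus strand) did not pass. It had 234, 228 and 228 CPM in Cd226-/- and 239, 235 and 245 CPM in WT. The groups did not overlap, but the difference was small: the log2 fold change was -0.063 ± 0.047 (SE), with a 95% interval of -0.16 to 0.04 and adjusted p = 0.335 in edgeR's test. Scaled by library size alone, it passed at -0.12 (adjusted p = 0.0482). Runx1 (chromosome 16, 92601466 to 92826149, minus strand) overlapped, with 75.7, 69.6 and 74.3 CPM in Cd226-/- and 75.2, 70.7 and 67.1 CPM in WT. Its log2 fold change was 0.045 with a 95% interval of -0.08 to 0.17 (edgeR adjusted p = 0.604), and scaling by library size alone gave -0.0081.

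**Figure D1:**
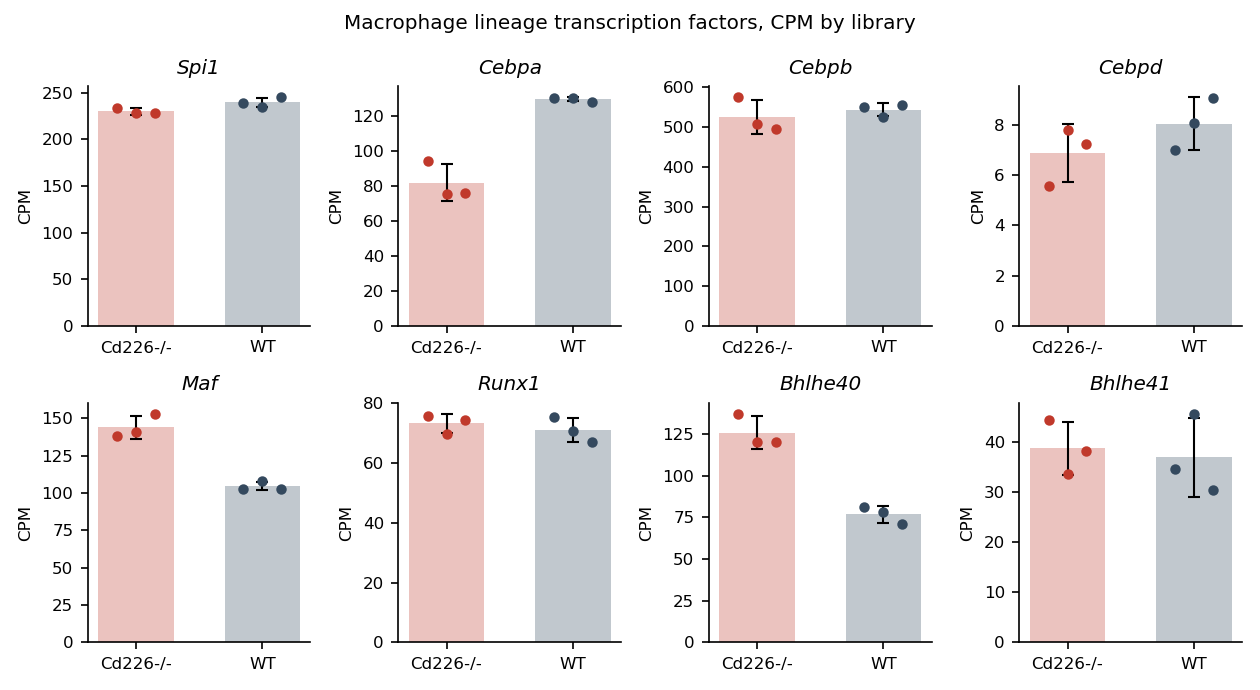
Depth-scaled counts (CPM) of each factor in the 3 Cd226-/- (red) and 3 WT (dark) libraries; points are libraries, bars are means and error bars are SD. Cebpa lies at 75.5 to 94.1 CPM in Cd226-/- and 128 to 130 CPM in WT, and Maf and Bhlhe40 are higher in every Cd226-/- library.

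**Figure D2:**
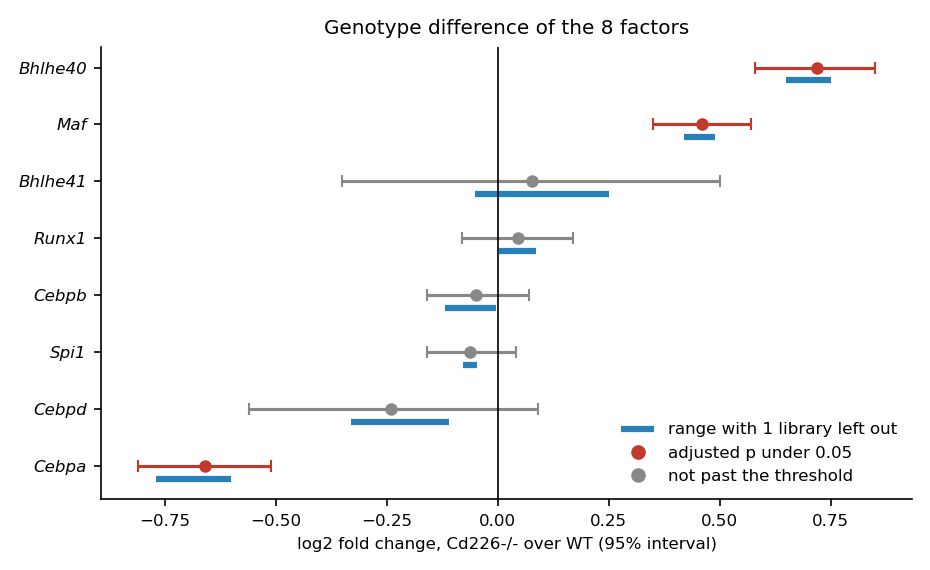
Log2 fold change of each factor, Cd226-/- over WT, with its 95% interval (points and whiskers), and the range over 6 fits with 1 library left out (blue bars). The ranges of Bhlhe40, Maf and Cebpa stay away from 0, and that of Bhlhe41 crosses it.

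Levels of different genes were compared per kilobase of exon, using the union of exons in GENCODE M21, which may differ from the annotation the authors counted with. On this scale Cebpb led with 350 ± 28.7 CPM per kb in Cd226-/- and 362 ± 10.5 in WT (SD, n = 3 each). Spi1 followed at 85.2 ± 1.23 CPM per kb in Cd226-/- and 89.0 ± 1.94 in WT. Cebpa had 31.0 ± 4.03 CPM per kb in Cd226-/- and 49.0 ± 0.564 in WT. Bhlhe40 came next with 26.8 ± 2.06 CPM per kb in Cd226-/- and 16.3 ± 1.07 in WT, and Maf had 17.5 ± 0.962 and 12.7 ± 0.375. Runx1 averaged 6.00, Bhlhe41 5.61 and Cebpd 1.99 CPM per kb over the 6 libraries.

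The order of the mean levels was the same in both genotypes, but not all neighbours were apart. In WT, Cebpa lay well above Bhlhe40, at 48.4 CPM per kb or more against 17.2 or less. In Cd226-/- these genes overlapped, with a lowest Cebpa value of 28.7 and a highest Bhlhe40 value of 29.1 CPM per kb. Runx1 and Bhlhe41 overlapped in both genotypes. With the longest transcript as length, Bhlhe40 exceeded Cebpa in Cd226-/-, at 40.4 ± 3.11 against 31.2 ± 4.05 CPM per kb, while in WT it stayed below, at 24.7 ± 1.62 against 49.2 ± 0.566 (SD, n = 3 each).

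**Figure D3:**
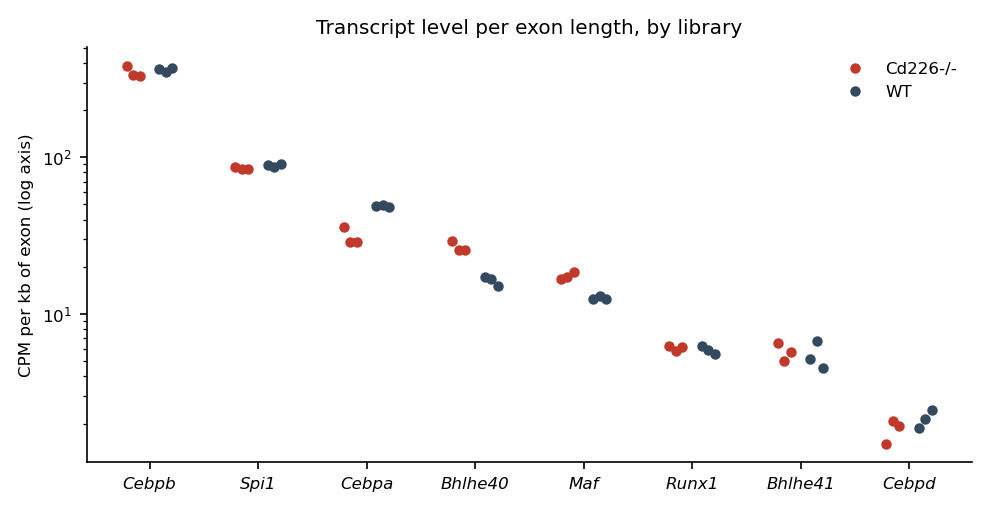
Level per kilobase of exon (CPM per kb, log axis) of each factor in each library, Cd226-/- in red to the left of WT in dark, ordered by the mean. Cebpb is highest at 330 to 383 and Cebpd lowest at 1.49 to 2.43, and Cebpa and Bhlhe40 meet in Cd226-/-.

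Ratios of counts within a library do not depend on how libraries are scaled, and 5 pairs are described. The ratio of Cebpb to Cebpa was 6.12, 6.71 and 6.54 in Cd226-/- replicates 1 to 3 and 4.25, 4.03 and 4.35 in WT replicates 1 to 3. All Cd226-/- libraries thus held more Cebpb per Cebpa than any WT library, a log2 difference of 0.62. Bhlhe40 stood to Bhlhe41 at 3.10, 3.59 and 3.15 in Cd226-/- and 2.34, 1.72 and 2.34 in WT, a log2 difference of 0.63.

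In the ratios to partner genes the partner changed more than the member. The ratio of Spi1 to Irf8, the interferon regulatory factor that binds DNA together with PU.1, was 0.633, 0.665 and 0.692 in Cd226-/- and 1.01, 1.15 and 1.06 in WT, a log2 difference of -0.69. Irf8 itself rose 1.55-fold (347 ± 20.2 CPM in Cd226-/- and 224 ± 16.9 CPM in WT, SD, n = 3 each). Runx1 to Cbfb differed by 0.26 on the log2 scale, higher in Cd226-/-, and Cbfb fell (log2 fold change -0.22 ± 0.053 (SE), edgeR adjusted p = 0.00355). That call was lost with replicate 1 as the only Cd226-/- library (adjusted p = 0.106). Cebpd to Cebpb overlapped, with a log2 difference of -0.19 that became 0.03 without Cd226-/- replicate 1. In the other 4 pairs the genotypes did not overlap, and each had p = 0.10 in a two-sided exact permutation test (0.12 adjusted over 6 pairs tested), the smallest that 3 against 3 libraries can give.

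**Figure D4:**
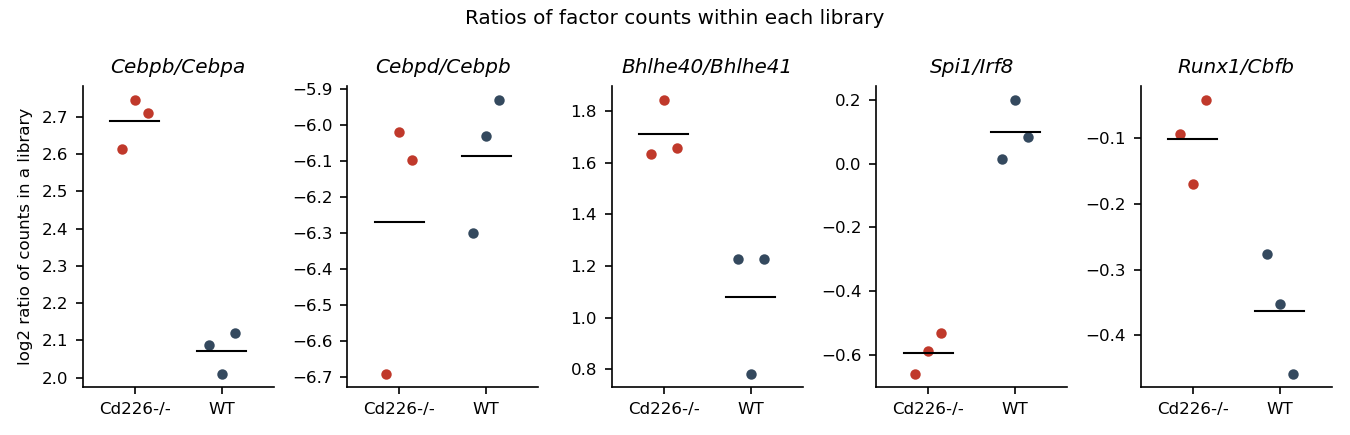
Log2 ratio of the counts of the named gene pairs in each Cd226-/- (red) and WT (dark) library; black lines are means and each panel has its own axis. The genotypes are apart in every pair except Cebpd to Cebpb.

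Near relatives of the 8 factors are given by family, beside the 30.9% of all tested genes that were called, and several that passed lost the call with 1 library left out. Of 4 tested genes listed as C/EBP relatives by name 2 rose and 1 fell. Ddit3, the stress-induced partner CHOP, rose 2.03-fold (32.7 ± 6.39 CPM in Cd226-/- and 16.2 ± 1.73 CPM in WT, SD, n = 3 each). Cebpg, which lies beside Cebpa on chromosome 7, rose 1.12-fold (adjusted p = 0.0346). Cebpz, which shares the name but is not a basic leucine zipper factor, fell by 0.26 on the log2 scale (edgeR adjusted p = 0.0148). Cebpe had a log2 fold change of 1.02 at 0.798 ± 0.266 CPM in Cd226-/- and 0.397 ± 0.265 CPM in WT without passing (edgeR adjusted p = 0.145). Cebpg missed the threshold without Cd226-/- replicate 2 or 3 (adjusted p = 0.102 in each case), WT replicate 1 (0.0799) or WT replicate 2 (0.171), scaled by library size alone (0.158), unfiltered (0.0649) and in DESeq2 (0.0563). Cebpz missed it without Cd226-/- replicate 2 (0.0683), WT replicate 1 (0.0721) or with the correction for GC content and transcript length (0.0507).

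Among MAF and BACH relatives 3 rose and 1 fell of 9 tested. Maff, a small MAF protein, rose 1.36-fold and Nfe2l1, a cap'n'collar factor that pairs with small MAFs, 1.16-fold. Nfe2l2, the oxidative stress factor NRF2, rose 1.10-fold (adjusted p = 0.0258), and missed the threshold without Cd226-/- replicate 2 (0.116) or 3 (0.0532) and without any 1 of the WT libraries (0.0586 to 0.105). It also missed it scaled by library size alone (0.144), unfiltered (0.0753) and with replicate 1 alone against WT (0.161). Among ETS relatives 2 rose and 1 fell of 14, and with 1 library left out 1 to 4 rose. Elf4 rose 1.25-fold. Ets1 rose 1.26-fold (adjusted p = 0.0421), and missed the threshold without Cd226-/- replicate 2 (0.0887) or 3 (0.231) or WT replicate 1 (0.113) or 3 (0.129). It also missed it scaled by library size alone (0.0891), unfiltered (0.0559), in DESeq2 (0.077) and with replicate 1 alone against WT (0.609). Spic, the factor of heme-handling macrophages, fell (2.97 ± 0.0284 CPM in Cd226-/- and 6.81 ± 1.86 CPM in WT, SD, n = 3 each; log2 fold change -1.19). Spib, the PU.1 paralogue of B cells and plasmacytoid dendritic cells, missed the threshold at a log2 fold change of 0.60 (adjusted p = 0.0953) but passed without Cd226-/- replicate 1 (0.83, adjusted p = 0.0124). B cell markers were also higher in Cd226-/-, and their part in the Spib values was not tested. Of 8 RUNX genes and cofactors 1 rose, Runx3, and 1 fell, Cbfb. Runx3 had 14, 31 and 24 counts in Cd226-/- and 10, 8 and 11 in WT, and missed the threshold without any 1 of Cd226-/- replicates 2 and 3 and the WT libraries (adjusted p 0.0517 to 0.166). Runx2 did not pass (log2 fold change 0.21).

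Of 33 other myeloid transcription factors tested 17 rose and 4 fell, beside 30.9% of all tested genes called in either direction, with a median log2 fold change of 0.19 against -0.0045 over all tested genes. Lyl1, a haematopoietic basic helix-loop-helix factor, rose 3.28-fold, Klf2 1.86-fold and Nr1h3, the oxysterol receptor LXRα, 1.57-fold. Zeb2, a repressor that maintains macrophage identity, fell by 0.19 on the log2 scale (edgeR adjusted p = 0.00702), and missed the threshold without Cd226-/- replicate 2 (adjusted p = 0.0543) and with replicate 1 alone against WT (0.0777). With replicate 1 as the only Cd226-/- library 10 of the 33 rose and 3 fell.

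Genes listed, from textbook roles, as dependent on PU.1, C/EBP or MAF proteins were divided. Some genes, such as Msr1, stand in several of these lists, so the counts of the lists are not separate results. No targets of Runx1 were listed, and for Bhlhe40 and Bhlhe41 the only list was of clock genes. Of all tested genes 16.1% were called higher and 14.8% lower in Cd226-/-. Of 30 PU.1-dependent macrophage genes 12 rose and 9 fell, with a median log2 fold change of 0.10. Csf3r, the G-CSF receptor, rose 1.60-fold and Tyrobp, the adaptor DAP12, 1.36-fold, whereas the LPS receptor Tlr4 fell by 0.55 and the Fc receptor gene Fcgr3 by 0.49 on the log2 scale. Tyrobp had a log2 fold change of 0.45, and 0.19 with the correction for GC content and transcript length. Csf1r, the M-CSF receptor and the classical PU.1 target, had 1163 ± 20.8 CPM in Cd226-/- and 1420 ± 29.5 CPM in WT (SD, n = 3 each), a fall of 0.29 on the log2 scale.

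Of 26 C/EBP inflammatory target genes 16 rose and 7 fell, with a median log2 fold change of 0.25. Beside them, 16.1% of all tested genes were called higher and 14.8% lower. The IL-1 receptor antagonist Il1rn rose 2.14-fold and complement C3 1.79-fold, while the chemokines Cxcl1 and Cxcl5 fell by 1.27 and 2.14 and Il6 by 0.49 on the log2 scale. Hepatocytes also make several of these proteins, C3 among them, and hepatocyte transcripts were found in Cd226-/- replicates 2 and 3. C3 had 4308, 4364 and 4174 CPM in Cd226-/- replicates 1 to 3 and 2510, 2397 and 2265 CPM in WT replicates 1 to 3. The part of hepatocytes in these values was not tested. With replicate 1 alone against WT 14 of the 26 rose and 7 fell. Among 8 tested C/EBP targets of alternative activation 1 rose, Retnla (4.18-fold), and 3 fell. The arginase gene Arg1 fell by 0.48 and the IL-4 receptor gene Il4ra by 0.29. Msr1, a scavenger receptor, fell by 0.16 on the log2 scale and missed the threshold without Cd226-/- replicate 2 (adjusted p = 0.0813), Cd226-/- replicate 3 (0.0634), WT replicate 1 (0.0742) or WT replicate 2 (0.0577). It also missed it with the correction for GC content and transcript length (-0.11, adjusted p = 0.105), with that correction plus the replicate block (0.127) and with replicate 1 alone against WT (0.141). Of 10 C/EBP genes of granulocyte development only 4 had enough counts to be tested. Of these Csf3r and Lcn2 rose and the other 2 did not pass. Csf3r is also in the PU.1-dependent list and Lcn2 in the C/EBP inflammatory list, so both rises were already counted there. Lcn2, an iron-sequestering acute-phase protein, rose 2.87-fold.

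Of 24 genes listed as dependent on MAF proteins in macrophages 19 were tested, and 8 rose and 3 fell, with a median log2 fold change of 0.27. Beside them, 30.9% of all tested genes were called in either direction. Timd4, a phosphatidylserine receptor, rose 1.57-fold and C1qa, a subunit of complement C1q, 1.37-fold. Abcc3, a transporter, fell by 1.23 on the log2 scale, and Cd5l, the macrophage survival protein AIM, fell by 0.96, at 193 ± 14.4 CPM in Cd226-/- and 375 ± 15.7 CPM in WT (SD, n = 3 each). Cd226-/- replicate 3 stood apart in several genes of resident macrophages. The scavenger receptor gene Cd163 had 9, 9 and 129 counts in Cd226-/- and 15, 15 and 17 in WT, and the mannose receptor gene Mrc1 had 76, 80 and 266 in Cd226-/- and 102, 114 and 102 in WT. Cbr2, a carbonyl reductase and 1 of the 8 that rose, had 25, 27 and 101 counts in Cd226-/- and 4, 13 and 13 in WT. Its log2 fold change was 2.43, and 1.51 without Cd226-/- replicate 3 (edgeR adjusted p = 0.0303). The call was lost when WT replicate 1 (adjusted p = 0.0691), 2 (0.0509) or 3 (0.0915) was left out, in limma-voom (0.0587) and with replicate 1 alone against WT (0.154). Without Cd226-/- replicate 3, 7 genes of the list rose and 4 fell. Il10, which c-MAF activates and BHLHE40 represses, had 63, 31 and 61 counts in Cd226-/- and 49, 50 and 65 counts in WT. These values overlapped and the gene did not pass (log2 fold change 0.023, edgeR adjusted p = 0.957).

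The circadian clock genes, whose E-boxes BHLHE40 and BHLHE41 bind, split evenly: 3 rose and 3 fell of 17 tested. That is near the 30.9% of all tested genes called in either direction. The repressor genes Per2 and Per1 rose 1.50-fold and 1.26-fold. Clock, an activator of E-box transcription, had 66.2, 59.7 and 69.0 CPM in Cd226-/- and 82.4, 83.0 and 71.6 CPM in WT, a fall of 0.28 on the log2 scale (edgeR adjusted p = 0.00336). Npas2, its paralogue, was near the detection limit, with 1, 0 and 2 counts in Cd226-/- and 13, 11 and 13 counts in WT, and it too was called lower, though not with replicate 1 alone against WT (adjusted p = 0.0697). CACGTG was found in the promoters of 4 of the 15 clock genes in the RefSeq table, Per1, Cry1, Tef and Ciart, against 8.09% of all genes.

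**Figure D5:**
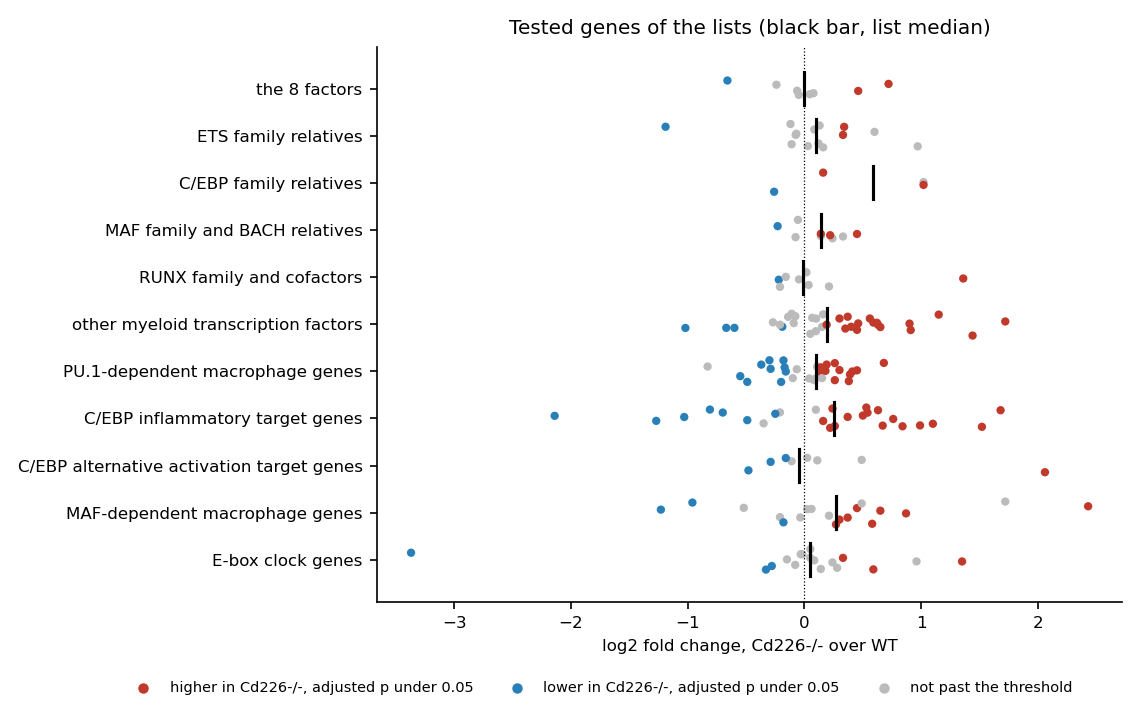
Log2 fold change, Cd226-/- over WT, of every tested gene in each list shown. Red and blue points passed at an adjusted p under 0.05, grey points did not, and black bars are list medians. The 8 factors have 2 red points and 1 blue point, and the other myeloid transcription factors have 17 red and 4 blue.

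For the factors that passed, genes with the most similar profiles were taken from 8959 genes that averaged 5 CPM or more, by Pearson's r of log2 CPM over the 6 libraries. The libraries share genotype, so r is high for many genes: 377 candidates exceeded 0.95 for Cebpa and 506 for Bhlhe40. Plin2, the lipid droplet protein, followed Cebpa closely (r = 0.9979), with 884 ± 133 CPM in Cd226-/- and 1618 ± 33.5 CPM in WT (SD, n = 3 each). Bhlhe40 was matched best by Cd200, an inhibitory ligand (r = 0.9990), and Id2, an inhibitor of helix-loop-helix factors (r = 0.9980). Cd200 had 164 ± 17.4 CPM in Cd226-/- and 89.3 ± 5.44 CPM in WT, and Id2 had 224 ± 10.1 CPM in Cd226-/- and 170 ± 6.50 CPM in WT. Maf was matched best by the mitochondrial transcript ND4 (r = 0.9949), with 328 ± 17.6 CPM in Cd226-/- and 253 ± 10.8 CPM in WT.

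The cell content of the cultures bears on all these values. Marker counts stand beside the 30.9% of all tested genes called in either direction. The 10 macrophage markers are also all in the list of PU.1-dependent genes, so their calls repeat part of that result. All 10 macrophage markers were detected, 4 rose and 3 fell, and their summed level was 25490 to 26038 CPM in Cd226-/- and 24098 to 26413 CPM in WT, with Lyz2 the most abundant; Cx3cr1 was at 1.12 CPM in Cd226-/- and 1.09 CPM in WT. In bulk RNA, fewer cells of a type and less RNA per cell cannot be told apart.

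Some markers of other cell types moved with genotype, and their part in the results was not tested. Of all tested genes 16.1% were called higher and 14.8% lower. Of 10 tested B cell markers 9 rose, with summed levels of 54.5 to 71.4 CPM in Cd226-/- and 24.0 to 29.3 CPM in WT. Ighm was at 0, although Cd79a had 66 to 223 counts in a library. Without the annotation and counting tool, a gene that was not counted cannot be told from one that was not expressed. The same holds for the other genes at 0. Dendritic cell markers summed to 155 to 158 CPM in Cd226-/- and 107 to 119 CPM in WT (4 of 7 tested rose). The most abundant of them were Ccr7 (63.6 CPM in Cd226-/- and 43.4 in WT), Tcf4 (51.2 and 37.4) and Itgax (32.6 and 25.1). Bcl11a, which also rose, was low, at 1.41 CPM in Cd226-/- and 0.513 in WT (log2 fold change 1.46, edgeR adjusted p = 0.00714). Flt3, Zbtb46 and Clec9a, at 4.38 CPM or less in either mean, did not pass. Fibroblast and stromal markers summed to 788 to 821 CPM in Cd226-/- and 517 to 597 CPM in WT (5 of 9 rose). Osteoclast markers summed to 378 to 432 CPM in Cd226-/- and 282 to 338 CPM in WT (4 of 7 rose), with Oscar at 0. Acp5 (186 CPM in Cd226-/- and 133 in WT) and Ctsk (78.3 and 54.8) were the most abundant of those that rose. Calcr, Nfatc1 and Mmp9 did not pass. Of 5 tested neutrophil markers 0 passed in edgeR's test, 1 had an unadjusted p under 0.05, and 1 passed in DESeq2 and 0 in limma-voom; they summed to 133 to 135 CPM in Cd226-/- and 132 to 149 CPM in WT. T and NK cell markers summed to 10.5 to 11.8 CPM in Cd226-/- and 9.29 to 10.3 CPM in WT. Of the 8 tested 0 passed in edgeR's test, DESeq2 or limma-voom, 3 had an unadjusted p under 0.05 in edgeR's test and limma-voom and 1 in DESeq2, and Trac and Trbc2 were at 0. Mast cell and basophil markers summed to 80.1 to 82.7 CPM in Cd226-/- and 82.0 to 93.5 CPM in WT (2 rose and 3 fell of 9), with Mcpt8 at 0.

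Hepatocytes and adipocytes also express Cebpa. Hepatocyte markers, none of which had enough counts to be tested, summed to 0.22, 29.6 and 32.2 CPM in Cd226-/- replicates 1 to 3 and 0.0548 to 0.181 CPM in WT. The libraries that held them, Cd226-/- replicates 2 and 3, had the lowest Cebpa, and the part of these cells in the Cebpa values was not tested. Adipocyte markers summed to 32.5 to 48.1 CPM in Cd226-/- and 55.7 to 67.6 CPM in WT, nearly all of it Fabp4, which macrophages express too and which, the only 1 of the 6 tested, fell by 0.64 on the log2 scale. Lep and Cfd were at 0. Erythroid markers were at 0.872 CPM or less in every library, with 5 of 8 at 0. Whether the genes at 0 were counted is not known.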

How the data were processed

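RNA sequencing of 6 libraries, 3 Cd226-/- and 3 WT, was analysed from 1 deposited table, in which the authors gave raw read counts by gene symbol, without normalization. Reads were aligned with HISAT2 to GRCm38, per the submitters' processing notes. Not given in the sources used here are the aligner's version, the annotation, the counting tool and the use of strand. Columns were assigned by name, and 0 columns were left unused.

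In R 4.3.3, edgeR 4.0.16 filtered genes with filterByExpr, scaled libraries by TMM and tested Cd226-/- against WT by a two-sided, robust quasi-likelihood F-test, adjusted by Benjamini and Hochberg over 13215 genes. Standard errors are the log2 fold change over the square root of F. A count of 0 allows up to 3 counts, 0.1385 to 0.1782 CPM by library, if the gene was counted at all. Such limits and the counts themselves cover counting error only.

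The members, the 22 other lists (291 distinct genes with the members, 1 matched by an older symbol) and the tests were chosen with earlier results of these data known, and the TATA box was added after the promoters were seen. Named genes were the members, fixed partners, up to 4 called genes by p of each list and the 2 most alike of each called member; part of them is described, and some results are not reported here. Genes outside this rule, named after their values were seen, are Cd226, Alb, Cd163, Mrc1, Cbr2, Tmem189, Spidr, Cry1, Tef, Ciart and the single marker genes of the closing paragraphs of the results. Gene lengths, GC content and overlaps come from GENCODE M21 (GRCm38) and promoters from RefSeq (GRCm38.p6). The alternatives were DESeq2 (1.42.0) size factors and Wald test, library size alone, 2 other filters, limma-voom (3.58.1), the replicate number as a block, offsets for GC content and length (lowess span 0.3), each library left out, replicate 1 as the only Cd226-/- library, and an adjusted p under 0.01. Counts were simulated for this comparison with 200 of 13215 genes changed in each set. On them edgeR recovered 38.0% of 1.25-fold, 68.4% of 1.5-fold, 78.4% of 2-fold and 93.2% of 3-fold changes. Of its calls 8.91% were unchanged genes, above the nominal 5%. In the data 30.9% of genes were called, a far larger share than was simulated, so these rates may not hold for them.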

Additional observations from a re-analysis of the deposited data

How the results depend on the processing

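Bhlhe40, Maf and Cebpa kept their direction and their call in all 16 other fits, with log2 fold changes of 0.65 to 0.84, 0.41 to 0.50 and -0.77 to -0.45. Cebpd, Runx1 and Bhlhe41 were called in none of them (adjusted p 0.0944 or higher in each). The number of factors called lower was 2 in place of 1 with library size alone (Spi1 joined, log2 fold change -0.12, adjusted p = 0.0482, over a range of 0.0482 to 0.771), with the GC and length offset and with that offset plus the replicate block (Cebpb joined at -0.15 in both, adjusted p = 0.0161 and 0.0202); it was 1 to 2 with 1 library left out. Leaving out 1 library gave Cebpb -0.12 to -0.0042, Bhlhe41 -0.051 to 0.25 and the log2 ratio difference of Cebpd to Cebpb -0.31 to 0.03. The sign turned for Runx1 with library size alone (-0.0081) and for Cebpb with replicate 1 as the only Cd226-/- library (0.087), neither called; with that lone library the spread comes from the WT libraries. The cause was not tested. At an adjusted p under 0.01, 2636 genes were called, 1167 of them lower, against 4086 and 1956. With the longest transcript as length the mean levels were 115 CPM per kb for Spi1, 32.5 for Bhlhe40, 19.5 for Maf and 12.3 for Runx1.

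The labels do not say whether same-numbered libraries were paired. Their deviations from the group means correlated at r = 0.011, -0.013 and 0.015, so no common deviation was seen. Correlations over all genes cannot decide whether these libraries were prepared together, which was not tested. With the replicate block 4137 genes were called and no call of the 8 factors changed. Of 408 recomputed counts for the other lists 363 stayed within 1.5 times, and 43 of the 45 others were counts in the 4 lists of relatives. The lowest counts of the 8 factors were those of Cebpd, 101 to 201 in a library.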
